A study of Saccharomyces cerevisiae with 4 samples.

Results

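The general stress genes that the transcription factors Msn2 and Msn4 are known for were examined in Saccharomyces cerevisiae cells mutated for PMT1 and PMT2. The group holds 31 genes chosen by name (the factor genes MSN2 and MSN4 and 29 genes known from general and osmotic stress), leaving out genes of trehalose, glycogen, glycerol, chaperones and peroxide defence. All 31 were found on the Affymetrix yeast array, on 32 of its 9335 probe sets, among 5656 genes with a probe set of their own. Wild type cells of strain SEY6210 and pmt1 pmt2 cells of the SEY6210 background were compared, with 2 arrays per strain and a separate biological sample on each array. Cultures of both strains were diluted to an OD of 0.1 after overnight growth, reached 0.45 and were grown for 3 further hours, and total RNA was taken from exponentially growing cells. The labels name no agent or treatment for either strain, and the sources used here do not say how PMT1 and PMT2 were altered.

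Msn2 and Msn4 are related zinc finger activators of budding yeast that bind the stress response element of many promoters. In growing cells protein kinase A holds them in the cytoplasm, and on heat, osmotic shock, oxidants or loss of nutrients they enter the nucleus and switch on a broad protective programme. Osmotic stress acts on an overlapping set of genes through the MAP kinase Hog1. PMT1 and PMT2 encode O-mannosyltransferases of the endoplasmic reticulum that attach mannose to wall and membrane proteins, sensors of the cell surface among them.

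Values are deposited probe set signals in linear units, and a change is the log2 signal of pmt1 pmt2 minus that of wild type, as the mean of 2 arrays. The genes were chosen with results of this comparison known, so their values are given as a description of these 4 arrays and are no test of the group. A signal of 26.2, the highest among 19 probe sets for bacterial and mouse transcripts, served as the background level. The label of the mutant was checked on its own genes: PMT1 fell 9.08-fold and PMT2 at least 103-fold. Median signals were 54.4 to 66.1 over the arrays. The arrays numbered 1 differed from those numbered 2 in both strains, with an actin control read 2.99 and 3.15 times as strongly at its 3′ end as at its 5′ end on the former against 1.38 and 1.32 times on the latter, so changes are also given within each number. The median change of all genes was −0.15 within number 1 and 0.21 within number 2.

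Of the 31 stress genes, 30 had a higher mean in pmt1 pmt2 and only HXK1 a lower one. The median change was 1.21, with a range from −0.47 (HXK1) to 4.83 (SPG4), against a median of 0.03 for all 5656 genes. In RNA from whole cultures, more transcript in every cell and more cells with the transcript cannot be told apart. Within number 1 the median was 0.72 and within number 2 it was 1.69, which is 0.87 and 1.47 above the median of all genes in the same arrays. Of these genes, 29 were higher within both numbers, where 31.9% of all genes were, and 1 was lower within both, where 31% of all genes were. In 26 of the 31 both mutant arrays lay above both wild type arrays, a pattern found in 18.5% of all genes. In 0 of the 31 did both lie below, a pattern found in 14.7%. These orders are by deposited values. In ALD3, RTN2, OM45, SIP18, GRE2 and SPG4 no gap was left once values under background were raised to it.

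A set of 6 genes made up the upper end of the group among those with a measurable mutant signal, and a gap separated them from the rest. DDR2, HSP12, RTC3, MNC1, NQM1 and XBP1 had changes of 3.45 to 4.40, whereas the next below them, MSC1, had 1.95. By limma across all 5656 genes (Benjamini-Hochberg adjusted p under 0.05), DDR2, HSP12, RTC3, MNC1, NQM1 and SPG4 rose and 0 of the 31 fell. That is 6 of 31, where 0.283% of all genes were called higher and 0.106% lower. With a replicate block on the array number, 9 of the 31 were called higher and 0 lower, where 2.32% and 0.707% of all genes were. At an unadjusted p under 0.05 limma counted 16 of the 31 higher and 0 lower, where 5.37% and 1.8% of all genes were. The count of 6 was 0 without pmt1 pmt2 array 1, 0 without pmt1 pmt2 array 2, 0 after quantile normalization, 0 with log2 values below 4 raised to 4 and 3 after centring (DDR2, RTC3 and MNC1), and it was 7 without either wild type array. The change of DDR2 was 4.30 or more in each of the fits that lowered the count, whereas that of SPG4, a dim gene, fell to 0.48 with low values raised. Having 2 arrays per strain limits the precision of every value.

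**Figure D1:**
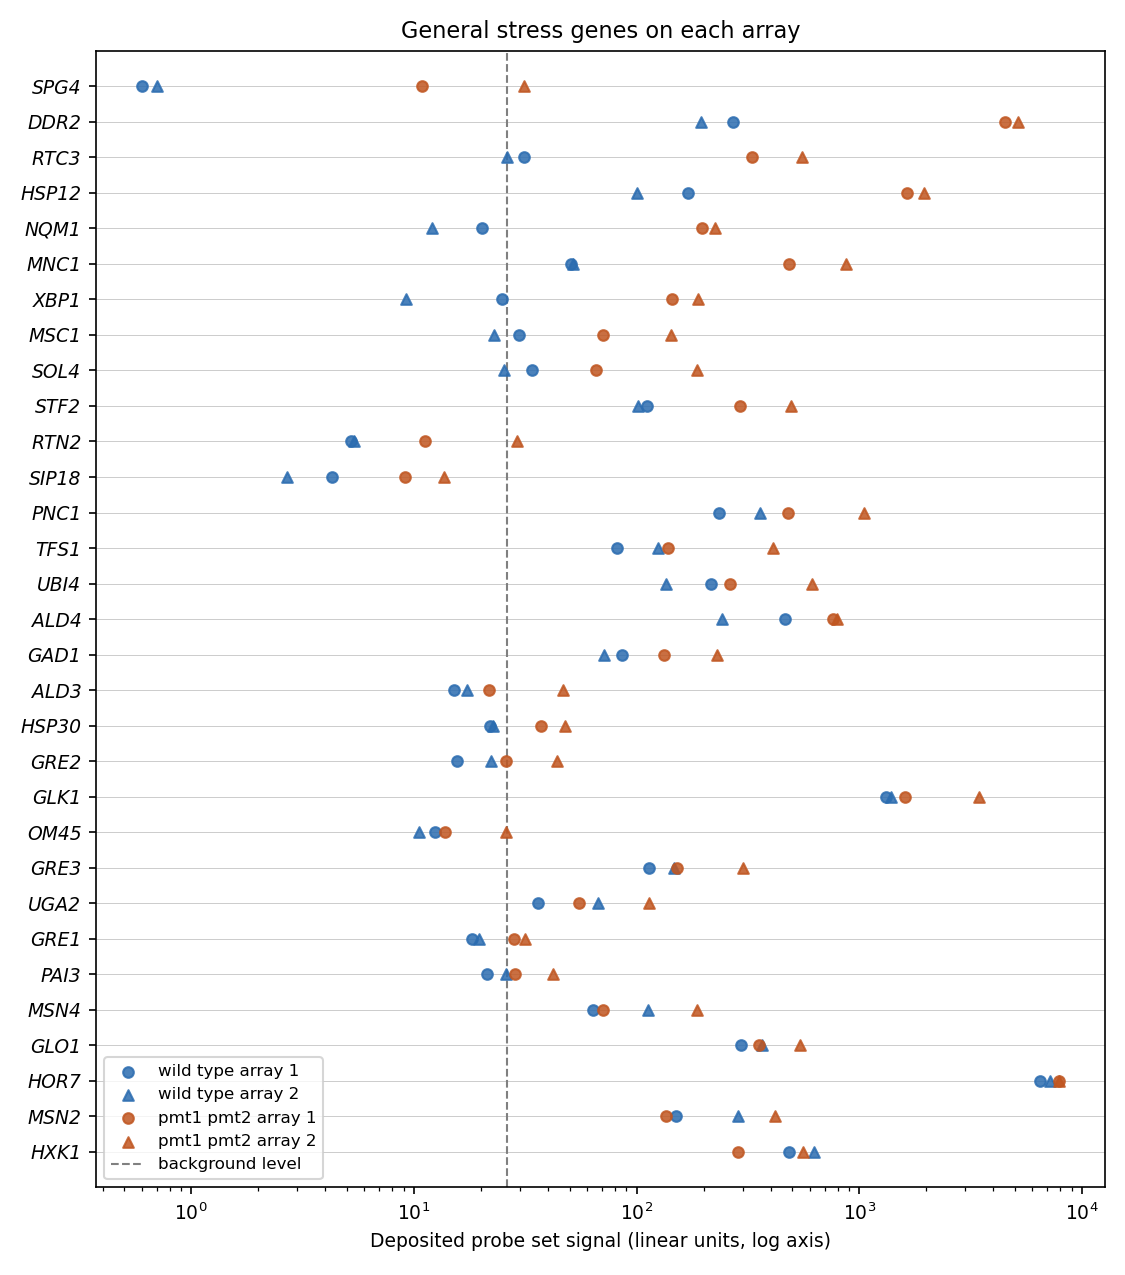
Deposited signal (log axis, linear units) of the 31 general stress genes on each of the 4 arrays, ordered by log2 change. Each symbol is 1 array, blue for wild type and orange for pmt1 pmt2, and the dashed line is the background level of 26.2. The orange symbols lie right of both blue ones in 26 genes, and HXK1, MSN2, MSN4, GLO1 and UGA2 are the 5 with overlapping groups. Among the 26, the lower orange symbol of ALD3, RTN2, OM45, SIP18, GRE2 and SPG4 lies left of the dashed line.

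DDR2 (YOL052C-A) belongs to a small family of multistress genes that respond to heat and DNA damage. It measured 270.3 and 194.1 in wild type against 4511.3 and 5166.9 in the mutant. The groups were far apart and the mutant arrays close together, a 21.1-fold rise (log2 change 4.40 ± 0.37, SE). HSP12 (YFL014W), whose small heat shock protein stabilises membranes, measured 171.0 and 100.3 in wild type against 1631.4 and 1948.1 in the mutant. Here too the mutant arrays were the closer pair, and the rise was 13.6-fold (3.77 ± 0.41, SE).

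RTC3 (YHR087W), a stress-induced gene of unclear function, measured 31.3 and 26.3 in wild type, just above background, and 329.4 and 554.3 in pmt1 pmt2. The lowest mutant array was 10.5-fold above the highest wild type array, and the mean rise was 14.9-fold (3.90 ± 0.41, SE). MNC1 (YBR056W-A) encodes a small membrane protein of the CYSTM family. It measured 50.9 and 51.7 in wild type against 481.4 and 872.6 in the mutant, a 12.6-fold rise (3.66 ± 0.42, SE). Its wild type arrays were nearly equal, and its mutant arrays differed 1.81-fold.

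NQM1 (YGR043C), a transaldolase homologue of the pentose phosphate pathway, measured 20.2 and 12.0 in wild type, both under background, against 197.5 and 226.1 in the mutant. Set against background, the rise was at least 8.07-fold (3.76 ± 0.40, SE, by deposited values). XBP1 (YIL101C) encodes a transcriptional repressor that acts in stress and quiescence. It measured 24.9 and 9.2 in wild type, again under background, and 144.4 and 188.4 in pmt1 pmt2. XBP1 was at least 6.295-fold higher (3.45 ± 0.54, SE) and did not pass limma's test across all genes. Leaving out wild type array 2 or array 1 gave a log2 change of 2.73 or 4.16, both against a wild type under background.

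MSC1 and STF2 followed at a distance. MSC1 (YML128C) measured 29.7 and 23.0 in wild type, above background on 1 array, and 70.8 and 143.1 in pmt1 pmt2 (log2 change 1.95 ± 0.46, SE). STF2 (YGR008C), a hydrophilin that protects cells on drying, measured 111.9 and 101.6 in wild type against 292.0 and 493.3 in the mutant (3.56-fold, 1.83 ± 0.40, SE). With values under background raised to it, DDR2, HSP12, RTC3, MNC1, NQM1, XBP1, MSC1 and STF2 were the 8 of 31 whose lowest mutant array was at least 2-fold above the highest wild type array, where 1.73% of all genes were. None of the 31 was 2-fold apart in the other direction, where 0.407% of all genes were. The gene just inside that limit was MSC1, with a gap of 2.38-fold, and the gene just outside was SOL4, with 1.94-fold.

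The genes of the 2 transcription factors themselves had overlapping groups. MSN2 (YMR037C) measured 151.1 and 285.0 in wild type against 135.0 and 417.0 in the mutant. The arrays numbered 1 were low and those numbered 2 high in both strains, and the groups overlapped (log2 change 0.19 ± 0.63, SE, −0.16 within number 1 and 0.55 within number 2). MSN4 (YKL062W) measured 64.0 and 113.1 in wild type against 70.6 and 187.7 in the mutant, with the same split by number (0.44 ± 0.58, SE). Without pmt1 pmt2 array 2 the change of MSN2 was −0.62 and that of MSN4 −0.27, and without pmt1 pmt2 array 1 they were 1.01 and 1.14. Transcript levels say nothing of where the proteins are in the cell.

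Genes that act on the 2 factors or beside them were taken from a list of 27 (the protein kinase A pathway, Snf1, Tor1, 14-3-3 proteins, the nuclear exporter Msn5, and the Hog1-linked factors), all of which were measured. Limma's test called none of the 27 at adjusted p under 0.05, where 0.389% of all genes passed. At limma's unadjusted p under 0.05 it counted 0 higher and 0 lower, where 5.37% and 1.8% of all genes were. The replicate block also called 0 of them, where 2.32% of all genes were called higher and 0.707% lower. At shares as low as these, a count of 0 among 27 genes is no result about the regulators. Their median change was 0.02, with −0.21 and 0.21 within the numbers, close to the all-gene values. RAS1, a GTPase that activates adenylate cyclase, had the smallest p and measured 305 ± 110.1 in wild type against 161 ± 56.1 in the mutant (mean ± SD, n = 2 arrays). SMP1, a factor linked to Hog1, measured 23.8 ± 10.8 and 46.4 ± 26.1, and its wild type signal was above background on 1 array only. YAK1, a kinase opposed to protein kinase A, measured 70.2 ± 1.84 and 109 ± 24.5. PDE1, the low-affinity cAMP phosphodiesterase, measured 65.9 ± 4.53 and 108 ± 39.2.

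**Figure D2:**
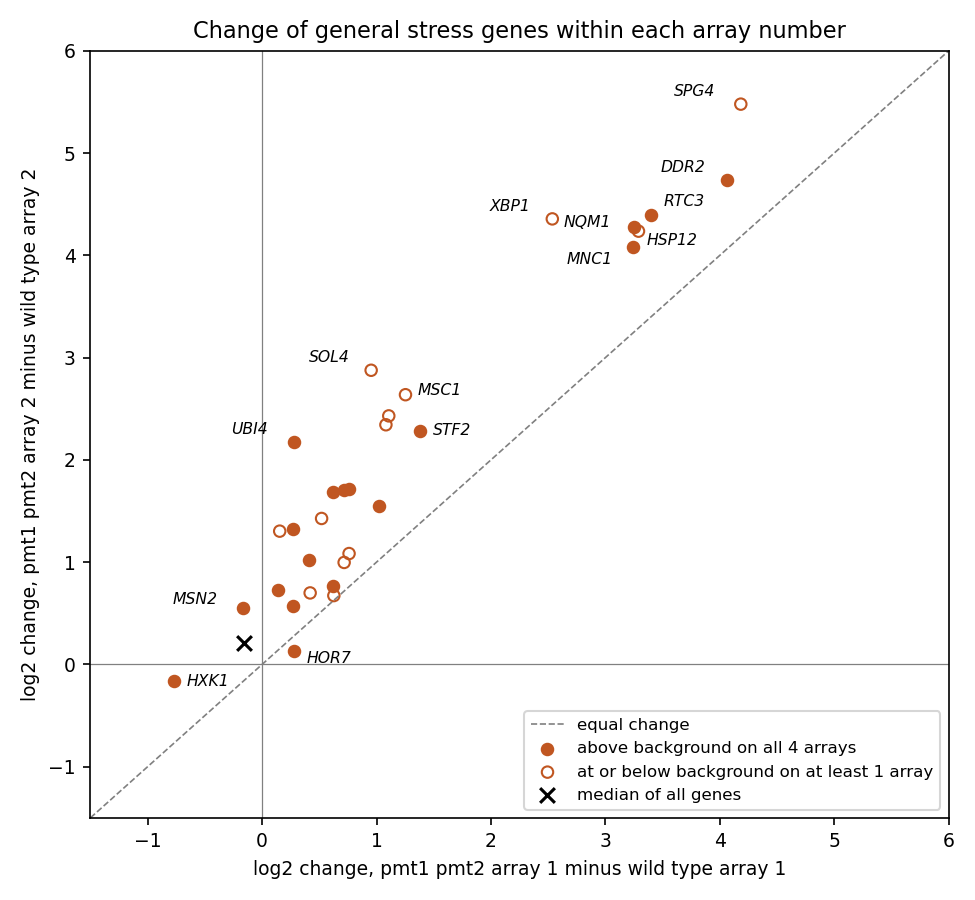
Log2 change of the 31 genes within the arrays numbered 1 (horizontal axis) and within those numbered 2 (vertical axis). Points above the dashed line changed more within number 2, as 30 of 31 did, and 7 genes from XBP1 to SPG4 lie apart at the upper right.

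The size of the difference varied with the array number, and not equally in all genes. The change was larger within number 2 than within number 1 in 30 of the 31, HOR7 being the exception, where 80.8% of all genes showed the same order. The median excess was 0.91 on the log2 scale for the stress genes and 0.34 for all genes. Across the 31 genes, which share the same 4 arrays and are not independent, the changes within the numbers correlated at r = 0.945, so their order was much alike. By the probe set used for each gene, all 31 were higher on pmt1 pmt2 array 2 than on array 1, where 73.2% of all genes were. A second UGA2 probe set had the reverse order, with 73.4 on pmt1 pmt2 array 1 and 57.0 on array 2. In wild type 18 of the 31 were higher on array 2, where 50.6% of all genes were.

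With values under background raised to it, the second mutant array was at least 2-fold above the first in 9 of the 31, where 9.67% of all genes were, and the first above the second in 0, where 3.52% were. The wild type arrays were 2-fold apart in 0 of the 31, where 8.04% of all genes were. Those 9 were UBI4, TFS1, MSC1, UGA2, PNC1, SOL4, GLK1, MSN2 and MSN4, and the other UGA2 probe set did not bear out the place of UGA2. The ratios between the mutant arrays were highest in MSN2 (3.09), TFS1 (2.98) and SOL4 (2.845). ALD3, RTN2, SPG4, GRE2, OM45 and SIP18 were under background on pmt1 pmt2 array 1. DDR2, HSP12 and NQM1 had ratios of 1.15, 1.19 and 1.15, XBP1 one of 1.30, RTC3 one of 1.68 and MNC1 one of 1.81. The 6 genes at the upper end of the group had mutant arrays less than 2-fold apart, as most of the 31 and most of all genes had. Their wild type ratios, array 2 over array 1 by deposited values, were 0.72 (DDR2), 0.59 (HSP12), 0.84 (RTC3) and 1.02 (MNC1). Those of NQM1 (0.59) and XBP1 (0.37) rest on signals under background.

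Genes of carbon metabolism had changes from −0.47 (HXK1), the lowest of the 31, to 1.91 (SOL4). SOL4 (YGR248W), a lactonase of the pentose phosphate pathway, measured 29.8 ± 6.01 in wild type, above background on 1 array, and 126.5 ± 85.8 in pmt1 pmt2. The mutant arrays of SOL4 were 1.94-fold above wild type within number 1 and 7.34-fold within number 2. GLK1 (YCL040W), for glucokinase, measured 1355 ± 41.3 and 2532 ± 1320.0, with ratios of 1.21 and 2.50 within the numbers. HXK1 (YFR053C), for the hexokinase of the same first step of glucose use, measured 556 ± 99.6 in wild type against 422 ± 193 in the mutant. Its ratios were 0.588 and 0.891, so HXK1 and GLK1 lay on opposite sides of 1 within both numbers.

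The aldehyde and aminobutyrate enzymes had changes from 0.69 (UGA2) to 1.21 (ALD4). ALD4 (YOR374W), the main mitochondrial aldehyde dehydrogenase, measured 354 ± 157 in wild type against 779 ± 20.2 in the mutant. Here the spread lay in the wild type arrays (465.3 and 243.0), and leaving out array 1 or array 2 of them gave a change of 1.68 or 0.74. ALD3 (YMR169C), a cytosolic form, was by its own probe set under background on both wild type arrays and at 21.8 and 46.8 in pmt1 pmt2. GAD1 (YMR250W), the glutamate decarboxylase that starts the aminobutyrate route, measured 78.6 ± 10.3 and 181 ± 68.6 (2.23-fold). UGA2 (YBR006W), for the succinate semialdehyde dehydrogenase that ends it, measured 51.4 ± 21.8 and 84.5 ± 41.2, and its groups overlapped. On a second UGA2 probe set they did not, with 41.9 and 33.1 in wild type against 73.4 and 57.0 in the mutant. UGA1, the transaminase between GAD1 and UGA2, measured 80.6 and 86.1 in wild type against 115.0 and 183.9 in the mutant. All 3 steps were higher within both numbers, where 31.9% of all genes were, and UGA2 had a change of 0.17 without pmt1 pmt2 array 2. Limma's test called none of the 3.

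Genes that protect or dispose of proteins and cofactors had changes from 0.56 (PAI3) to 1.29 (PNC1). PNC1 (YGL037C), the nicotinamidase of NAD salvage, measured 297 ± 87.1 in wild type against 763 ± 404 in the mutant (2.44-fold). UBI4 (YLL039C), the polyubiquitin gene used under stress, measured 176 ± 57.4 and 437 ± 247. Its ratios were 1.21 within number 1 and 4.505 within number 2. Ubiquitin is also encoded by RPL40A, RPL40B and RPS31, so the source of the UBI4 signal is uncertain, and the change of RPS31 was −0.06. TFS1 (YLR178C), an inhibitor of carboxypeptidase Y, measured 103 ± 30.8 and 275 ± 193. PAI3 (YMR174C), the inhibitor of proteinase A, was under background on both wild type arrays and at 28.5 and 42.2 in pmt1 pmt2. Its target gene PEP4 measured 2514 ± 198 and 3342 ± 156, a change of 0.41, and PAI3 was at least 1.32-fold higher.

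The GRE genes and GLO1 gave small or dim values. GRE3 (YHR104W), an aldose reductase that also reduces methylglyoxal, measured 131 ± 23.97 in wild type against 226 ± 105 in the mutant. GLO1 (YML004C), the glyoxalase that detoxifies methylglyoxal, measured 330.3 ± 52.0 and 449 ± 134, and its groups overlapped. GRE2 (YOL151W), a reductase with methylglyoxal among its substrates, was at 15.7 and 22.1 in wild type against 25.8 and 44.1 in the mutant. It was above background on pmt1 pmt2 array 2 only. GRE1 (YPL223C), a hydrophilin, was under background in wild type and at 28.1 and 31.4 in pmt1 pmt2. The lower bounds of the fold were 1.29 for GRE2 and 1.13 for GRE1.

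Several genes were too dim for a fold. SPG4 (YMR107W), needed for survival in stationary phase, was at 0.6 and 0.7 in wild type against 10.9 and 31.2 in the mutant, above background on 1 array only. Its log2 change of 4.83 therefore rests on values that the background probe sets also reach, and with log2 values below 4 raised to 4 it was 0.48. SIP18 (YMR175W) and OM45 (YIL136W), for a hydrophilin and a mitochondrial outer membrane protein, were at or under background on all 4 arrays, as 10.6% of all genes were. RTN2 (YDL204W), a reticulon of the endoplasmic reticulum, was above background on pmt1 pmt2 array 2 only, at 29.1. HSP30 (YCR021C), a plasma membrane protein that restrains the proton pump Pma1, was under background in wild type and at 37.1 and 47.9 in the mutant, or at least 1.61-fold higher. In all, 18 of the 31 were above background on all 4 arrays, with a median change of 1.18, and 11 were at or under it on both wild type arrays.

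Several stress genes have a paralogue or close relative, and the relatives often gave smaller values. HOR7 (YMR251W-A), the paralogue of DDR2, measured 6469.7 and 7194.5 in wild type against 7861.8 and 7884.4 in the mutant, a change of 0.21 beside 4.40 for DDR2. HOR7 lay in the upper range of arrays whose highest signals were 9876.0 to 12590.3, and the part of signal compression was not tested. TAL1, the main transaldolase, measured 957 ± 45.2 and 1188 ± 145, a change of 0.31 beside 3.76 for NQM1. SOL3 had a change of 0.19 beside 1.91 for SOL4, and RTN1 one of 0.06 beside 1.77 for RTN2, whose wild type signal was under background.

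Other relatives gave mixed values. TMA10, the paralogue of STF2, was at 20.0 and 20.4 in wild type against 39.8 and 42.7 in the mutant. Its wild type arrays were under background, so its rise was at least 1.57-fold, beside a measured 3.56-fold for STF2. YRO2, of the family of HSP30, measured 68.4 ± 24.7 and 310.0 ± 255 (3.82-fold, change 1.93), whereas MRH1 of the same family had a change of 0.06. ALD2 lies next to ALD3 in the R64 assembly and is nearly the same in sequence, so their signals may be shared. By their own probe sets both were under background in wild type, and the lower bounds of the fold were 1.965 for ALD2 and 1.22 for ALD3. A probe set shared by ALD2 and ALD3 was above background there, at 54.5 and 80.2. YLR179C, the neighbour and relative of TFS1, had a change of −0.48 beside 1.24 for TFS1. OM14, which like OM45 encodes a mitochondrial outer membrane protein, measured 309 ± 60.95 and 721 ± 225 (change 1.20).

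Over the whole list of 24 relatives, 22 were measured, with a median change of 0.17. Limma's test called none of them (0 at adjusted p under 0.05, where 0.389% of all genes passed, and 5 higher and 0 lower at an unadjusted p under 0.05, where 5.37% and 1.8% of all genes were). With the replicate block 1 of the 22, YRO2, was called higher and 0 lower, where 2.32% and 0.707% of all genes were. The differences between a stress gene and its relative were not tested, since the stress genes were chosen with their values known.

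**Figure D3:**
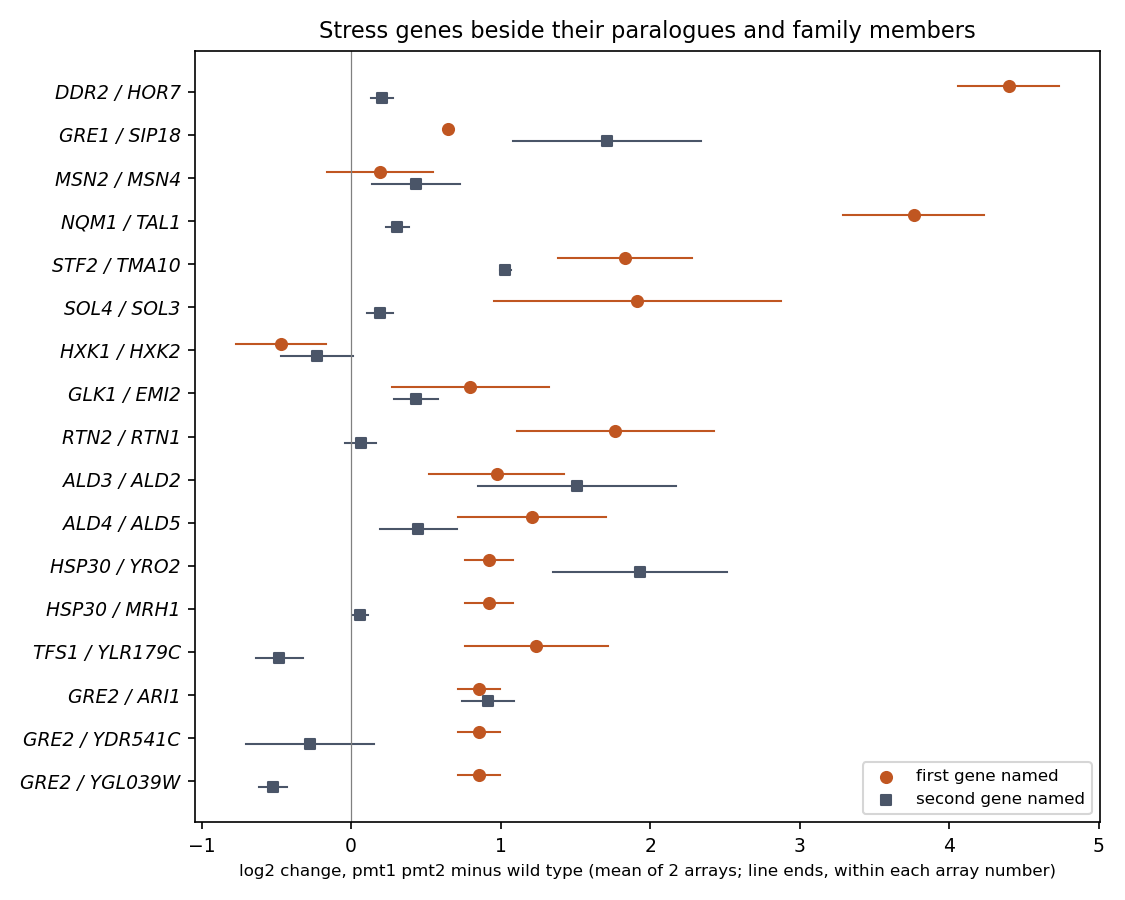
Log2 change of stress genes (orange circles, upper line of each row) and of a paralogue or family member (grey squares). Symbols are the mean of 2 arrays per strain, and the ends of each line are the changes within array numbers 1 and 2. DDR2 (4.40) and HOR7 (0.21) are the paralogues farthest apart.

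Stress genes of the neighbouring groups (trehalose, glycogen, glycerol, chaperones, peroxide defence and a few others) had a median change of 0.96 over the 25 measured, and 23 of the 25 were above 0. Limma's test called none of the 25 (0 at adjusted p under 0.05, where 0.389% of all genes passed, and 11 higher and 0 lower at an unadjusted p under 0.05, where 5.37% and 1.8% of all genes were). With the replicate block on the array number, 6 of the 25 were called higher (CTT1, TSL1, GPD1 and YGP1 among them) and 0 lower, where 2.32% and 0.707% of all genes were. The 4 with the smallest p were CTT1 (cytosolic catalase, 11.4 ± 1.06 and 43.2 ± 3.89), YGP1 (a secreted glycoprotein, 863 ± 10.5 and 3337 ± 801), TSL1 (trehalose synthase subunit, 123 ± 16.2 and 557 ± 198) and GPD1 (glycerol-phosphate dehydrogenase, 652 ± 115 and 2526 ± 808). CTT1 was under background on both wild type arrays. The largest change in that list was 2.14, for TSL1.

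**Figure D4:**
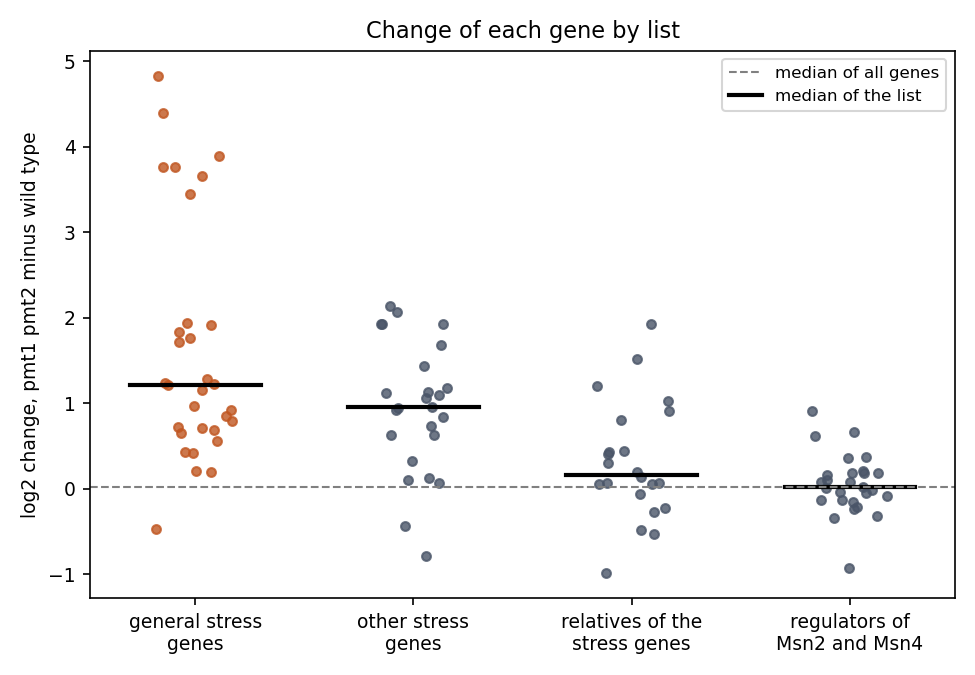
Log2 change of each gene in 4 lists, with the median of each list (bar) and the median of all 5656 genes (dashed line, 0.03). Each point is 1 gene, the mean of 2 arrays per strain. The bars lie at 1.21, 0.96, 0.17 and 0.02 from left to right.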

How the data were processed

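Total RNA was labelled with biotin and hybridised to Affymetrix yeast arrays, 2 per strain. The authors deposited probe set signals in linear units (intensity). The submitters' processing notes name GCRMA without version or settings. GCRMA does not usually give zeros or distributions that differ between arrays, and both occur here, so the summary method is uncertain. Signals were log2 transformed after zeros were set to 0.1, with no further normalization or filter. Of 9335 probe sets, 6504 named 1 gene, 328 several and 2503 none. The probe set with the highest mean log2 signal stood for a gene. Names and neighbours came from the R64 assembly, where all 5656 genes had a locus tag.

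The strains were compared in R 4.3.3 with limma 3.58.1 (lmFit, eBayes, two-sided, Benjamini-Hochberg over 5656 genes, threshold 0.05), tested on simulated data first. The simulated arrays had independent noise and no effect of array number, so that check does not cover the deviations shared by arrays with the same number. An exact permutation test of 1 gene at 2 against 2 arrays has 0.333 as its smallest two-sided p. Where a group was under background (26.2) on both arrays, the fold was set against background as a lower bound. Every member is accounted for, with values on each array for MSN2, MSN4 and members 2-fold apart between all arrays. Up to 4 genes with the smallest p were named from each other list, beside relatives of a described member. Some dim members are also given by array. The members and lists were chosen with earlier results of these data known. A gene of the regulator list is not reported here. Promoter and protein sequences were not used here.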

Additional observations from a re-analysis of the deposited data

Results flagged for a closer look

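The 3 probe sets that carry a gene of the group but entered no comparison all had signals above background on all 4 arrays. A second UGA2 probe set measured 41.9 and 33.1 in wild type against 73.4 and 57.0 in the mutant (log2 change 0.80, beside 0.69 for the one used). A probe set shared by GLK1 and YCL042W measured 162.3 and 458.3 in wild type against 230.6 and 1658.7 in the mutant (1.18, beside 0.80 for GLK1 alone). A probe set shared by ALD2 and ALD3 measured 54.5 and 80.2 in wild type against 71.7 and 226.7 in the mutant (0.95, beside 1.51 and 0.97 for the probe sets of each gene). No group was large enough to be tested for outlying samples.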

How the results depend on the processing

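Across all genes limma called 22, which became 2 after quantile normalization, 14 after centring on the array median, 38 with a mean log2 signal of at least 6, 1 with log2 values below 4 raised to 4, and 171 with a replicate block on the array number. Leaving out 1 array gave 0 (without pmt1 pmt2 array 1, with 612 at limma's unadjusted p under 0.05) to 62 (without wild type array 1). The 6 stress genes called higher became 0 after quantile normalization (17 at limma's unadjusted p under 0.05), 3 after centring, 0 with low values raised (10 at limma's unadjusted p under 0.05) and 0 to 7 when 1 array was left out. With the replicate block the count was 9, XBP1, MSC1 and STF2 being added. With the mean-variance trend it was 5, and with a mean log2 signal of at least 6 it was 4 of the 17 genes that remained. The labels do not pair the arrays. Deviations from the group means of the arrays with the same number correlated at r = 0.646 over 5656 genes. Over the 3539 genes with a mean log2 signal of at least 6 the value was 0.828. With 2 arrays per strain this is a hint from the data only. The median change of the stress genes stayed at 0.92 to 1.21 under the alternatives that kept all arrays and was 0.72 to 1.55 when 1 array was left out. The median of all genes then moved from −0.14 to 0.24. With a mean log2 signal of at least 6 the median of the stress genes covers only the 17 that remained. The count of 8 genes at least 2-fold apart between all arrays, recomputed in alternatives chosen after seeing the data, was 9 after quantile normalization, 9 after centring, and 8 to 15 when 1 array was left out (15 without pmt1 pmt2 array 1). The cause of these shifts was not tested. Of 327 values of single genes under an alternative, 321 moved by less than the residual SD of the gene. This count is no measure of stability, since leaving out 1 array cannot move a value beyond that SD. The replicate block, the mean-variance trend and the limit on mean log2 signal leave each value as it was. MSN2, MSN4 and HXK1 changed sign when 1 pmt1 pmt2 or wild type array was left out, and the other 28 did not, SIP18 being at 0.00 with low values raised.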
